A study of Mus musculus with 6 samples.

Results

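Mgp and 4 genes of the elastic fibre and its microfibrils (Mfap4, Mfap5, Fbn1 and Eln) were followed through injury and repair of mouse tibialis anterior muscle (TAM). They are 5 of the 12436 genes listed for every cell, and they were picked by name after earlier results of these data were known. The uninjured stromal contrast between the diets, in which Mgp and Mfap4 were lower in hypothyroid mice, is what chose them, so all values of that contrast are a description and support nothing.

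Cells of TAM were profiled by single-cell RNA sequencing in male mice fed a control diet or a hypothyroid diet (low iodine with 0.15% PTU, propylthiouracil, which blocks thyroid hormone synthesis). Muscles were taken uninjured (day 0) or at 5 or 14 days post injury (dpi) with cardiotoxin (CTX, 50 µg/ml), a snake toxin that kills muscle fibres and leaves the tissue to regenerate. Mice were 3 to 5 months old and were on their diet from 3 weeks before injury. All 6 libraries are from mice of a B6;129 background with the allele tm1(Fucci2aR)Jkn of Gt(ROSA)26Sor, a cell cycle reporter, and per the study's methods the mice used for transcriptomics lacked Cre. Each library pooled 3 mice and each combination of diet and day is 1 library, so no difference between the diets could be set against a spread between animals. No test was run. Intervals are 95% intervals for counting error only.

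Matrix Gla protein, the product of Mgp, is a secreted protein that depends on vitamin K and is best known as an inhibitor of calcification of soft tissue and arteries. Elastic fibres have a core of elastin (Eln) laid on microfibrils, whose backbone is fibrillin-1 (Fbn1) and to which MFAP4 and MFAP5 bind. In skeletal muscle these proteins are made mainly by fibro-adipogenic progenitors (FAPs) and other stromal cells, by tendon cells and by cells of vessel walls. On the mouse assembly GRCm39 the genes lie at chr6:136849433-136852821 on the minus strand (Mgp), chr2:125142514-125349913 on the minus strand (Fbn1), chr6:122482804-122506249 on the plus strand (Mfap5), chr11:61376257-61379726 on the plus strand (Mfap4) and chr5:134731447-134776177 on the minus strand (Eln). None of the 5 overlaps another annotated gene on its own strand.

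Cells were sorted into classes by marker genes, and 5321 of 11207 cells were stromal-like. The classes are rebuilt here and may differ from those of the study. Stromal-like cells numbered 840, 447 and 1854 in the control libraries of day 0, 5 and 14, and 335, 905 and 940 in the hypothyroid ones. They had a median of 7 of the 8 stromal markers detected, and a median of 0 for every other class but the myocyte list, of which 5 of 8 genes were detected. The summed level of the myocyte list in stromal-like cells was 3021, 530.1 and 7389 CPM (UMIs of a gene scaled to a common total per pool) in the control libraries and 10130, 219.3 and 2325 CPM in the hypothyroid ones. Hemoglobin transcripts there ranged from 1.34 to 2846 CPM and the mitochondrial share from 1.95% to 3.70%. The part of these in the results below was not tested. The depth was 2283740 to 23496509 UMIs per library, and the uninjured hypothyroid library was the smallest, with 528 cells. The deposited files mix cells of several libraries. Only the first run of cells in each file was used, and that this run belongs to the labelled condition could not be checked. The study reports more cells per sample than this run holds.

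Mgp was far lower in uninjured hypothyroid stromal-like cells, differed little between the diets at 5 dpi and was again lower at 14 dpi. In the control libraries its level was 906.2 CPM at day 0, 778.4 CPM at day 5 and 2063 CPM at day 14. In the hypothyroid libraries it was 63.5 CPM at day 0, from 105 UMIs in 335 cells, 764.5 CPM at day 5 and 873.3 CPM at day 14. The hypothyroid library of day 0 is the lowest of the 6 and the control library of day 14 the highest. The ratio of hypothyroid to control was 0.0701 (0.0572 to 0.0850) at day 0, a level 14.3-fold lower. It was 0.982 (0.949 to 1.016) at day 5 and 0.423 (0.413 to 0.434) at day 14.

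**Figure D1:**
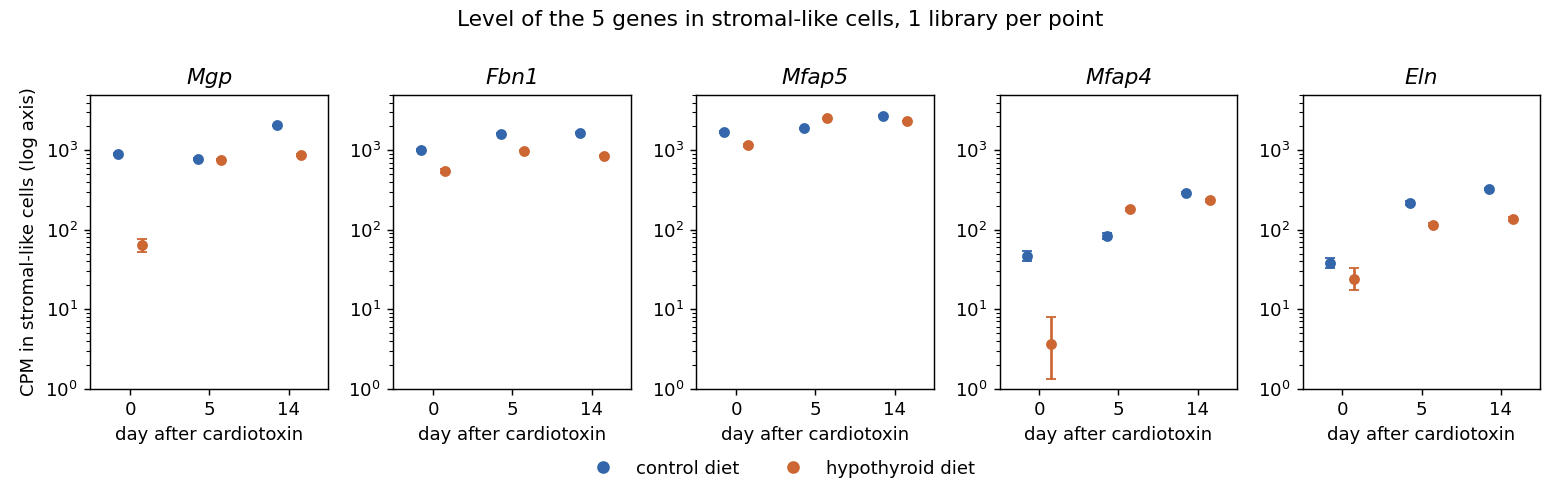
Level of each gene in stromal-like cells (CPM, log axis) by day after cardiotoxin. Each point is 1 library of 3 pooled mice, blue for control and orange for hypothyroid diet, with 95% Poisson intervals. All 5 genes are lowest in the uninjured hypothyroid library, with Mgp at 63.5 and Mfap4 at 3.63 CPM, and Fbn1 and Eln are lower on the hypothyroid diet on all 3 days.

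The stromal contrast had to be read against all genes, since their median ratio was 0.989 at day 0, 0.794 at day 5 and 0.919 at day 14 (-0.33 at day 5 and -0.12 at day 14 on the log2 scale). Divided by that median, the Mgp ratio was 0.0709, 1.24 and 0.461, so its direction at day 5 depends on the scaling. Of the genes with at least 20 UMIs in both pools together, 0.203% had a ratio as low as that of Mgp at day 0, 71.3% at day 5 and 4.74% at day 14. At day 0, 2 of the 5 genes (Mgp and Mfap4) were at least 2-fold lower, against 4.19% of 10341 genes, and none was 2-fold higher, against 3.48%, a count that the choice of genes fixes. At day 5 none was 2-fold lower, against 10.2% of 11673 genes, and 1 (Mfap4) was 2-fold higher, against 3.04%. At day 14, 2 of 5 (Mgp and Eln) were 2-fold lower, against 7.50% of 11579 genes, and none was 2-fold higher, against 1.64%. At a limit of 1.5-fold, 4 were lower at day 0 (11.6% of genes), 2 at day 5 (31.1%) and 3 at day 14 (19.0%), so the count of day 5 is near the background share. When all cell columns of each file were used, including those of unknown condition, the calls of Mgp at day 0 (0.552), Mfap4 at day 5 (0.759), and Mgp (0.608) and Eln (0.702) at day 14 were no longer past 2-fold.

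The level of Mgp differed widely among stromal-like cells. These were divided by markers into Pi16-type cells (the Pi16+ Dpp4+ progenitor-like FAPs), Smoc2-type cells (Smoc2+ Cxcl14+ interstitial FAPs), tenocyte-like cells (Tnmd, Fmod, Scx) and injury matrix cells (Cthrc1, Tnc, Postn), which appear after damage. In the uninjured control library Mgp was at 117.7 CPM in Pi16-type cells, 1356 CPM in Smoc2-type cells and 6314 CPM in 59 tenocyte-like cells. In the uninjured hypothyroid library the same 3 states held 7.02, 128.8 and 448.8 CPM, the last from 14 UMIs in 10 cells, too few to compare. Both states with 20 cells or more were low, with ratios of 0.0596 (0.0217 to 0.131) in Pi16-type and 0.0950 (0.0752 to 0.119) in Smoc2-type cells. Without the tenocyte-like cells the stromal ratio of day 0 was 0.0877 (0.0704 to 0.108).

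At 5 dpi the near-equal Mgp levels of the whole stromal pool hid unequal sub-states. Injury matrix cells were 58.8% of control and 65.7% of hypothyroid stromal-like cells, and their Mgp was at 712.3 and 721.1 CPM, a ratio of 1.01 (0.971 to 1.06). In Smoc2-type cells Mgp was at 5002 CPM in 32 control cells and 915.5 CPM in 55 hypothyroid cells, with a ratio of 0.183 (0.163 to 0.205). Stromal-like cells without a sub-state went the other way, with a ratio of 1.96 (1.78 to 2.16). The 10 cells richest in Mgp held 46.0% of all its stromal UMIs in the control library of that day and 21.9% in the hypothyroid one, so the counting intervals are too narrow for the spread between cells. At 14 dpi all 5 pools compared had an interval below 1, with ratios from 0.321 in Smoc2-type to 0.690 in injury matrix cells. The median gene of the whole stromal pool was at 0.919 that day.

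Fbn1 encodes fibrillin-1, the glycoprotein that polymerises into the microfibril. It was lower in hypothyroid stromal-like cells on all 3 days, although the ratio of day 0 turned to 1.04 when every column of the files was used. Control libraries held 1017, 1622 and 1656 CPM at day 0, 5 and 14, and hypothyroid libraries held 548.3, 989.4 and 858.7 CPM. The 3 hypothyroid levels lie below all 3 control levels, narrowly so for 989.4 CPM (hypothyroid, day 5) and 1017 CPM (control, day 0). These are single libraries of different days and not replicates, and the levels were not scaled to the median gene. The share of all genes that separate by diet in this way was not counted, and day 0 is the contrast that chose the genes. The ratios were 0.539 (0.502 to 0.579), 0.610 (0.595 to 0.626) and 0.519 (0.505 to 0.533), and none was past 2-fold. Relative to the median gene, the day 5 ratio was 0.768, and 22.1% of genes had a ratio as low, so Fbn1 stood less far from other genes at 5 dpi than at day 0 (5.38%) or day 14 (8.49%).

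Fbn1 was highest in Pi16-type cells in each of the 6 libraries among the sub-states of 20 cells or more. There it was at 1492, 3986 and 2521 CPM in control and 774.3, 2191 and 1531 CPM in hypothyroid libraries. Its interval lay below 1 in 3 of 3 sub-state pools at day 0, 3 of 4 at day 5 and 5 of 5 at day 14. The exception was Smoc2-type cells at day 5, with a ratio of 0.909 (0.772 to 1.07). These counts are against a ratio of 1, while the median gene of the whole stromal pool was at 0.794 at day 5 and 0.919 at day 14.

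Fbn1 is the gene of the 5 whose promoter was at hand, and its 250 bases upstream of the RefSeq start (GRCm38.p6, chr2:125506439-125506688, minus strand) are shown because its level was lower on all 3 days. Capitals mark the GC box GGGCGG, the binding motif of Sp1, searched on both strands like the other motifs.
Fbn1 promoter: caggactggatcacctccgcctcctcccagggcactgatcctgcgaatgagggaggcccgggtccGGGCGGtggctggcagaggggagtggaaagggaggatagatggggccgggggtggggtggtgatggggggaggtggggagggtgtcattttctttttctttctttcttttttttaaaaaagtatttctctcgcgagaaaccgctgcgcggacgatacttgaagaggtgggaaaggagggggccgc
The GC box stood once, on the strand of the gene, and 32.7% of the 32851 promoters of the table hold it. The letters TATAAA of the TATA box, held by 12.4% of promoters, and AGGTCA, the half-site bound by thyroid hormone receptors, held by 14.0%, are not in this window. Its GC content was 59.2%, against a median of 52.4%. A match of letters is a description and not a binding site.

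Mfap5 encodes a small microfibril-associated glycoprotein. It was lower in the hypothyroid library at day 0, higher at 5 dpi and slightly lower at 14 dpi, with the day 5 ratio at 1.005 when every column of the files was used. The levels were 1695, 1898 and 2720 CPM in control and 1154, 2562 and 2320 CPM in hypothyroid stromal-like cells. The ratios were 0.681 (0.647 to 0.715), 1.35 (1.32 to 1.38) and 0.853 (0.838 to 0.869), all within 2-fold. At 14 dpi the median gene was at 0.919, and 40.9% of genes had a ratio as low, so the difference of that day is near the middle of all genes. Like Fbn1, Mfap5 was highest in Pi16-type cells in each library, with day 0 levels of 2563 CPM (control) and 1701 CPM (hypothyroid). The higher level of day 5 was seen in 4 of 4 sub-state pools, with ratios from 1.19 to 1.56.

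Mfap4 encodes a fibrinogen-domain protein that binds tropoelastin and fibrillin. It was nearly undetected in uninjured hypothyroid stromal-like cells, higher than control at 5 dpi and closer to control at 14 dpi. Control libraries held 46.8, 83.8 and 288.8 CPM at day 0, 5 and 14. Hypothyroid libraries held 3.63 CPM at day 0, from 6 UMIs, then 179.9 and 235.7 CPM. The ratios were 0.0775 (0.0282 to 0.171), 2.15 (1.95 to 2.36) and 0.816 (0.772 to 0.863). The directions of day 5 and 14 turned when every column of the files was used, with ratios of 0.295, 0.759 and 1.15.

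In the uninjured control library 173 of the 228 Mfap4 UMIs of stromal-like cells came from the 59 tenocyte-like cells, where the level was 754.9 CPM. Tenocyte-like cells were 7.02% (5.39 to 8.97) of control and 2.99% (1.44 to 5.42) of hypothyroid stromal-like cells at day 0. The 10 hypothyroid tenocyte-like cells held 1 Mfap4 UMI. Without tenocyte-like cells the level was 11.8 CPM (55 UMIs) for control and 3.08 CPM (5 UMIs) for hypothyroid mice, which gives a ratio of 0.260 (0.0813 to 0.645) in place of 0.0775. In Pi16-type cells the day 0 levels were 2.75 CPM for control (7 UMIs) and 4.68 CPM for hypothyroid mice (4 UMIs), with a ratio of 1.70 (0.364 to 6.68). In Smoc2-type cells they were 13.3 CPM from 23 UMIs and 1.59 CPM from 1 UMI. The low Mfap4 of the uninjured hypothyroid library thus rests on few cells and few UMIs.

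At 5 dpi the higher Mfap4 of hypothyroid cells was seen in 3 of 4 sub-state pools. Injury matrix cells held 2041 of its 2425 UMIs, with 100.3 CPM on the control and 201.7 CPM on the hypothyroid diet, a ratio of 2.01 (1.81 to 2.23). The ratio was 2.05 (1.11 to 3.94) in Pi16-type cells and 3.06 (2.21 to 4.34) in cells without a sub-state. In Smoc2-type cells of that day it was 0.981 (0.615 to 1.60). At 14 dpi Mfap4 was lower in 4 of 5 sub-state pools and higher in Pi16-type cells, at 46.7 and 71.1 CPM. Leaving out tenocyte-like cells brought its ratio of day 14 to 0.954 (0.898 to 1.01).

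Eln encodes tropoelastin, the soluble precursor of elastin. Like Fbn1 it was lower in the whole hypothyroid stromal-like pool of each day. At day 5 its sub-states split, with the interval below 1 in 2 of 4 pools and above 1 in 2. The interval lay below 1 in 2 of 3 pools at day 0 and in 5 of 5 at day 14. Control libraries held 38.0, 216.1 and 322.9 CPM at day 0, 5 and 14, and hypothyroid libraries 24.2 CPM (40 UMIs), 115.8 CPM and 135.1 CPM. The ratios were 0.637 (0.441 to 0.901), 0.536 (0.498 to 0.577) and 0.419 (0.392 to 0.447), and that of day 14 was past 2-fold. Relative to the median gene they were 0.644, 0.675 and 0.455. A ratio as low was found for 9.81% of genes at day 0, 13.2% at day 5 and 4.57% at day 14. At 5 dpi the 10 richest cells held 54.8% of all Eln UMIs in control stromal-like cells, and 1 of them held 326 of 1384 UMIs. In the hypothyroid library of that day the 10 richest held 361 of 1561, so the ratio of day 5 leans on few control cells.

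The state with the most Eln changed over time. In control mice at day 0 and 5 it was the Smoc2-type cells, with 64.8 and 870 CPM. At 14 dpi it was the injury matrix cells, with 1375 CPM in 90 control cells. In 143 hypothyroid cells of that type the level was 162.4 CPM, a ratio of 0.118 (0.103 to 0.135). Few cells carried much of the Eln of that day. The 10 richest stromal-like cells held 1166 of 3486 UMIs in the control library, 261 of them in 1 cell. In the hypothyroid library they held 603 of 1206, with 232 in 1 cell, and cells without a sub-state held 586 of the 1206. Smoc2-type cells were lower on the hypothyroid diet on each day, with ratios of 0.393 (0.217 to 0.666), 0.144 (0.106 to 0.194) and 0.198 (0.169 to 0.232). Pi16-type cells did not follow this, with ratios of 1.55 (0.905 to 2.59) and 1.48 (1.13 to 1.94) at day 0 and 5 before 0.499 (0.412 to 0.601) at day 14. Injury matrix cells were 4.85% of control and 15.2% of hypothyroid stromal-like cells at 14 dpi.

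**Figure D2:**
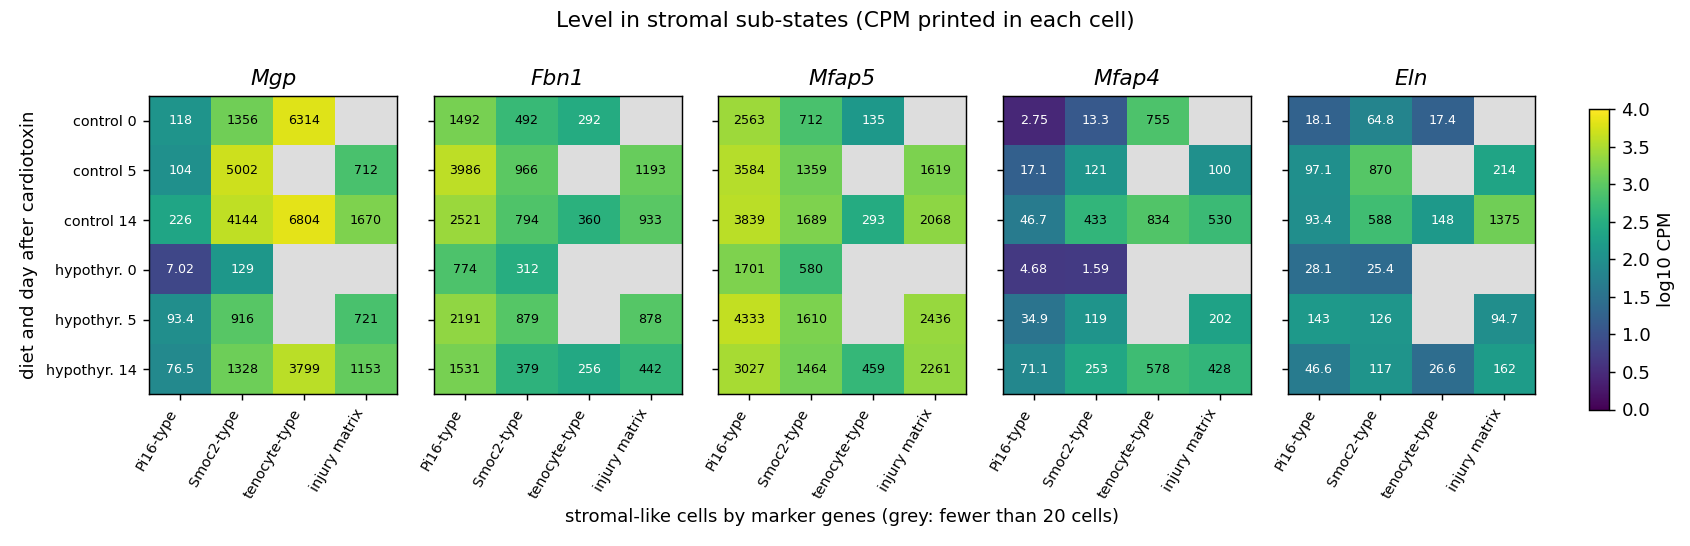
CPM of each gene in 4 stromal sub-states (columns) of the 6 libraries (rows), with the colour on a log10 scale and grey for pools with fewer than 20 cells. In control libraries Mgp and Mfap4 are highest in tenocyte-like cells at day 0 and 14 (6314 and 6804 CPM for Mgp), and Eln in Smoc2-type or, at day 14, injury matrix cells. Fbn1 and Mfap5 are highest in Pi16-type cells in every row.

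**Figure D3:**
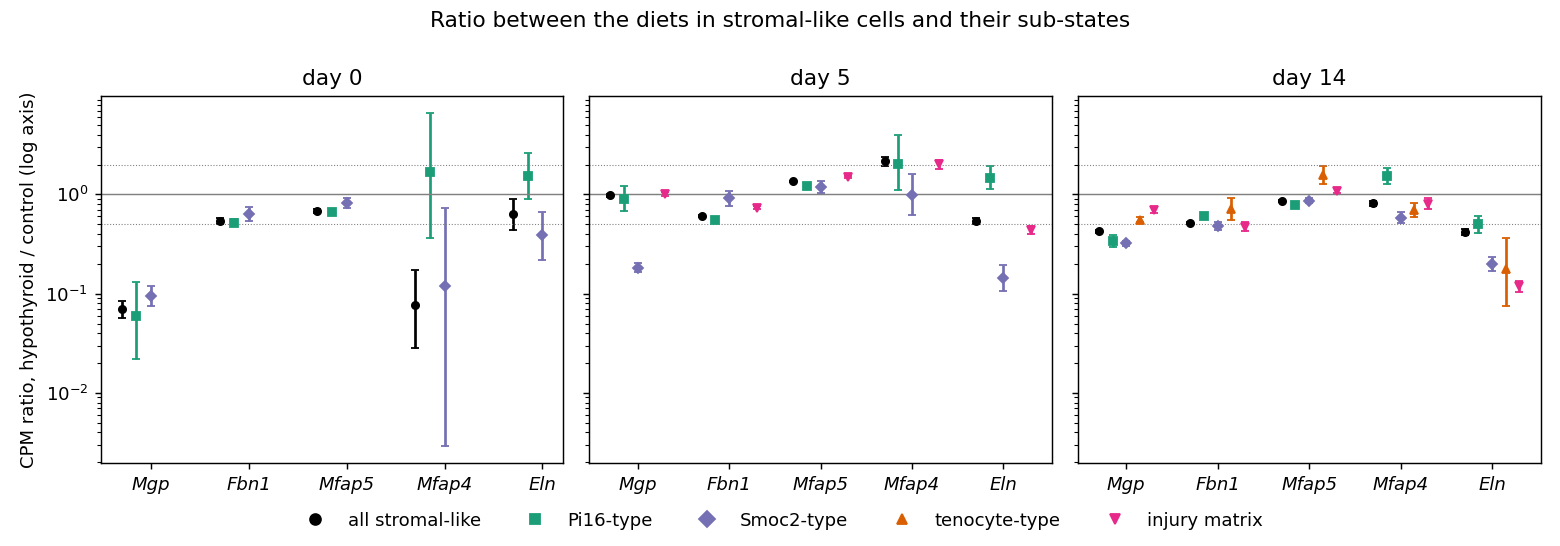
Ratio of hypothyroid to control CPM (log axis) for each gene at day 0, 5 and 14, in all stromal-like cells (black) and in each sub-state with at least 20 cells in both libraries. Bars are 95% counting intervals and dotted lines mark 2-fold, with Mgp in Smoc2-type cells at 0.0950, 0.183 and 0.321 over the 3 days.

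Smooth muscle and endothelial cells of vessels are known sources of matrix Gla protein and elastin, and both genes were found in vessel cells here. Endothelial-like cells held 610.4, 57.6 and 551.2 CPM of Mgp in control libraries at day 0, 5 and 14, and 139.7 (10 UMIs), 150 and 87.0 CPM in hypothyroid libraries. Uninjured and at 14 dpi the hypothyroid level was the lower, with ratios of 0.229 (0.107 to 0.435) and 0.158 (0.131 to 0.189). At day 5 it was the higher, with a ratio of 2.60 (1.69 to 3.98) from 39 UMIs in 4 of 34 cells, 22 of them in 1 cell, and 57 UMIs in 15 of 147 cells. These levels rest on few cells, since the 10 richest held 111 of 127 control UMIs at day 0 and 1028 of 1673 at day 14, 358 of them in 1 cell. Eln was at 182.6 CPM (38 UMIs) in control endothelial-like cells at day 0 and had no UMI in the 29 hypothyroid cells, so it was at least 4.36-fold lower against a floor of 3 UMIs. At 14 dpi Eln was at 137.4 and 22.4 CPM, a ratio of 0.163 (0.111 to 0.233).

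At 14 dpi 4 of the 5 genes were at least 2-fold lower in hypothyroid endothelial-like cells (Mgp, Mfap5, Fbn1 and Eln), against 7.30% of 10240 genes, and none was 2-fold higher, against 2.49%. RNA free in the suspension enters this comparison. The stromal marker list reached 1266 CPM in endothelial-like cells of the control library of day 14 and 978.5 CPM in those of the hypothyroid library, and the mural list 3630 and 2438 CPM. Lymphoid-like cells, which should not make these genes, held 71.4 CPM of Mgp and 55.6 CPM of Mfap5 in the control library and 15 CPM of each in the hypothyroid one. The endothelial levels were 111.7 and 33.3 CPM for Mfap5, 551.2 and 87.0 CPM for Mgp, and 137.4 and 22.4 CPM for Eln, which stood at 11.9 and 1.88 CPM in lymphoid-like cells. The part of free RNA was not tested further. In endothelial-like cells with a UMI of Vwf, a gene of larger vessels, Mgp was at 527 CPM in 153 control cells and 15.4 CPM, from 4 UMIs, in 36 hypothyroid cells. Their summed stromal list was at 854.5 and 215.2 CPM and their mural list at 4776 and 2406 CPM, and the part of either was not tested.

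In mural-like cells (pericytes and smooth muscle) the hypothyroid pools of day 0 and 5 held 11 and 9 cells and were not compared. At 14 dpi Mgp was at 600.3 CPM in 145 control cells and 171.6 CPM in 33 hypothyroid cells, with a ratio of 0.286 (0.158 to 0.479), and Eln was at 123.8 and 11.4 CPM, the last from 1 UMI. There 18.8% of 4631 genes were at least 2-fold lower, so ratios past that limit are common in these small pools. That share is for the 2-fold limit and not for ratios as low as those of Mgp and Eln. The highest mural level of Mgp, 5907 CPM in the control library of day 5, rested on 10 of 30 cells, which held 872 of its 875 UMIs.

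**Figure D4:**
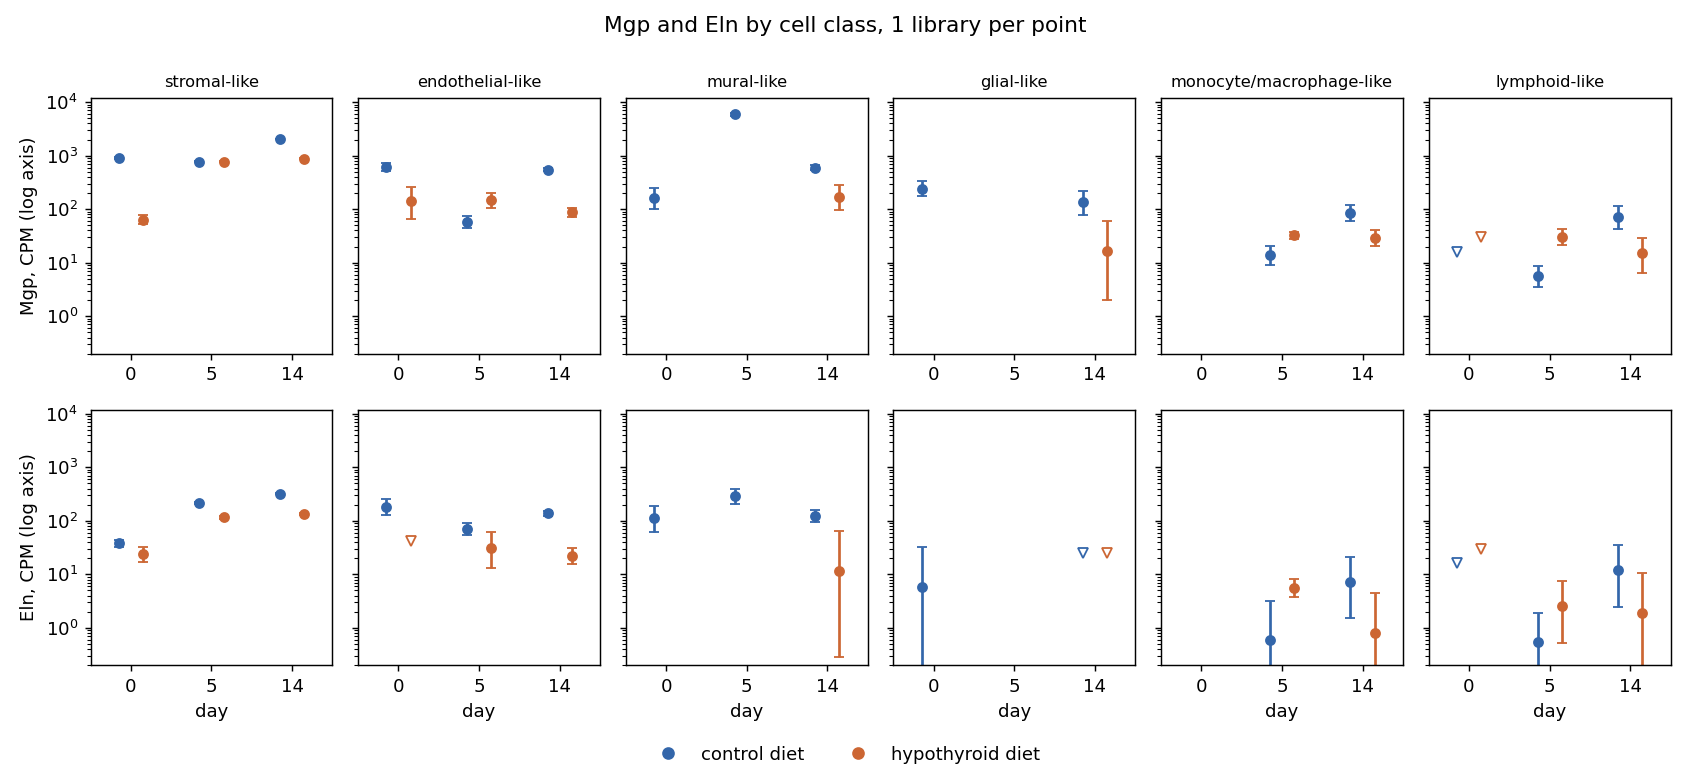
Mgp (upper row) and Eln (lower row) by cell class and day, as CPM on a log axis with 95% Poisson intervals. Each point is 1 library (blue control, orange hypothyroid), open triangles mark the level of 3 UMIs where no UMI was found, and pools with fewer than 20 cells are left out. At 14 dpi the hypothyroid point for both genes lies below the control point in stromal-like, endothelial-like and mural-like cells.

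Over the course of injury all 5 genes were higher at day 14 than at day 0 in stromal-like cells of both diets. The 2 ratios of a diet share its day 0 library, and the hypothyroid ones rest on the low Mgp and Mfap4 that chose the genes. In control mice the ratios of day 14 to day 0 were 8.51 (7.33 to 9.91) for Eln, 6.17 (5.39 to 7.09) for Mfap4, 2.28 (2.20 to 2.35) for Mgp, 1.63 (1.58 to 1.68) for Fbn1 and 1.60 (1.57 to 1.64) for Mfap5. Thus 3 of 5 were at least 2-fold higher, against 8.55% of 11419 genes. At day 5 control Eln was already 5.69-fold (4.88 to 6.67) higher, while Mgp stood at 0.859 (0.825 to 0.895) of its uninjured level. In hypothyroid mice Mgp was 12-fold (9.94 to 14.7) higher at day 5 and 13.8-fold (11.3 to 16.8) at day 14, and Mfap4 49.6-fold (22.8 to 135.3) and 65.0-fold (29.8 to 177.3). At day 5, 4 of 5 were past 2-fold in these mice, against 18.0% of 11515 genes, with Fbn1 the exception at 1.80 (1.69 to 1.93). At day 14 the same 4 of 5 were past 2-fold, against 11.2% of 10925 genes.

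The share of stromal-like cells with a UMI was compared after each cell was thinned to 1500 UMIs. For Mgp it was 36.9%, 29.8% and 46.8% in control and 8.50%, 35.9% and 21.1% in hypothyroid libraries at day 0, 5 and 14. Unthinned shares were 51.8%, 56.4% and 62.0%, and 15.2%, 61.9% and 38.4%. In thinned lymphoid-like cells, the measure of free RNA, the Mgp share was 10.0% of 80 cells in the control library of day 14. In all other libraries it was at most 1.27%. For the uninjured libraries this rests on 0 of 57 control and 0 of 26 hypothyroid cells, with upper limits of 6.27% and 13.2%. The hypothyroid limit lies above the stromal share of 8.50%. The thinned Fbn1 shares were 55%, 75.5% and 70.0% in control and 41.2%, 63.1% and 53.7% in hypothyroid libraries, with lymphoid-like shares of 0% to 5.00%. For Mfap5 the shares of a day differed by less, with 66.0% and 61.8% at day 0, 79.9% and 84.8% at day 5, and 78.4% and 80.5% at day 14. Eln was found in 14.5% and 14.7% of thinned cells at day 5, although its CPM ratio was 0.536. Its shares at day 14 were 17.7% (15.9 to 19.7) and 10.1% (8.19 to 12.2). The thinned Mfap4 shares were 5.47%, 10.2% and 18.4% in control and 0.980%, 19.9% and 16.5% in hypothyroid libraries. Lymphoid-like shares were at most 5.93% for Mfap5 (hypothyroid, day 5), and 3.75% for Eln and for Mfap4 (both control, day 14).

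Other parts of the elastic fibre were set beside these 5. Of 17 further components of elastic fibres and microfibrils, 16 had enough UMIs at day 0. There 1, against 4.19% of all genes, was 2-fold lower (Adamtsl2, which binds fibrillin-1 and latent TGF-beta complexes, with 36 control and 4 hypothyroid UMIs) and none 2-fold higher, and their median ratio was 0.926 against 0.989 over all genes. At day 5, 1 of 17 was 2-fold lower (10.2% of all genes) and 1 higher (3.04%), with a median of 0.754 against 0.794. The higher one was again Adamtsl2, at 65 hypothyroid and 15 control UMIs, so that gene is named here for its calls after its values were seen. The lower one was Emilin2, an elastin-interface glycoprotein, at 49.8 CPM in hypothyroid and 104.3 CPM in control. At day 14, 3 of 17 were lower (7.50% of all genes) and none higher (1.64%), with a median of 0.725 against 0.919. They were Ltbp2, a latent TGF-beta binding protein homologue that binds fibrillin-1 (ratio 0.376), Adamts10, a protease of the microfibril (0.380), and Adamtsl5, which binds fibrillin-1 (0.476). Mfap2, which encodes the other MAGP glycoprotein, is shown as a gene that was not lower, with ratios of 1.03, 1.37 and 1.46, and it was picked after its values were seen.

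Among the 5 lysyl oxidases, which cross-link elastin and collagen, 1 was 2-fold lower on each day, against 4.19%, 10.2% and 7.50% of all genes, and none was higher. The list medians were 0.687, 0.612 and 0.691, against 0.989, 0.794 and 0.919 over all genes. Loxl1, the family member tied most closely to elastic fibres, had 132.1 CPM on the control and 61.7 CPM on the hypothyroid diet at day 0. At day 5 it was at 544.8 and 254.1 CPM. The ratios were 0.467 (0.375 to 0.576) and 0.466 (0.445 to 0.489), with 0.559 at day 14. Loxl3 was the 1 past the limit at day 14, at 35.4 and 11.8 CPM.

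Of the proteases that degrade elastin, 3 of 6 had enough UMIs at day 0. None was 2-fold lower, against 4.19% of all genes, or higher, against 3.48%. Mmp12, the macrophage elastase, was higher in hypothyroid cells at day 5 (8.68 and 0.937 CPM) and day 14 (36.4 and 7.59 CPM), and so was Ctss, a cathepsin of myeloid cells, at day 14 (11.3 and 1.57 CPM). With Mmp9, which was lower but under 100 UMIs, 1 of 6 was lower at day 14 (7.50% of all genes) and 2 of 6 higher (1.64%). At day 5, 1 of 6 was higher (3.04% of all genes) and none lower (10.2%). The macrophage marker list, summed in the same stromal-like cells, was at 33.9 CPM (control) and 97.8 CPM (hypothyroid) at day 14, and at 54.6 and 86.9 CPM at day 5. Its part in these results was not tested.

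A further list held 13 genes of vitamin K-dependent carboxylation, BMP signalling and mineralisation, which act with or around MGP. Of these, 13 had at least 20 UMIs in both pools together at day 0, and 12 did at day 5 and 14. Among these Spp1 was the single one past 2-fold, so 1 of 13 was higher at day 0 (3.48% of all genes). At day 5, 1 of 12 was lower (10.2%), and at day 14, 1 of 12 was higher (1.64%). Alpl had 8 UMIs in each pool at day 5 and was not counted. Spp1 encodes osteopontin, a phosphoprotein that binds mineral. It was higher in hypothyroid stromal-like cells at day 0 (30.2 and 9.03 CPM), lower at day 5 (871.8 and 1752 CPM) and higher at day 14 (26.6 and 7.97 CPM). Its values at day 0 rest on fewer than 100 UMIs and are named outside the rule for naming genes. Ggcx, the carboxylase that makes Gla residues, had ratios of 1.35, 0.822 and 0.601 and was picked after its values were seen. The list medians were 0.959, 0.976 and 0.981, against 0.989, 0.794 and 0.919 over all genes.

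Of 5 TGF-beta ligands and receptors, 1 was 2-fold lower at day 0, against 4.19% of all genes. It was Tgfb1, at 35.3 CPM for control and 16.9 CPM for hypothyroid mice. None was past 2-fold at day 5 (10.2% of all genes lower, 3.04% higher) or day 14 (7.50% and 1.64%). Of 8 collagen genes of the same cells, 2 were 2-fold lower at day 0, against 4.19% of all genes. These were Col1a1 (1226 and 515.7 CPM) and Col1a2 (1526 and 712.2 CPM), the chains of type I collagen, and the list median was 0.560 against 0.989 over all genes. At day 5 and 14 no collagen was past 2-fold, and the medians were 0.809 and 0.776, against 0.794 and 0.919. The day 0 ratios of Fbn1 (0.539), Eln (0.637) and Mfap5 (0.681) thus lay in the range of the 8 collagens (0.420 to 0.714), and those of Mgp and Mfap4 below it.

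The genes with the pattern most like each of the 5 were sought over 39 pools of a library and a class with at least 20 cells, among 7216 genes, by Pearson's r of log2(CPM + 1). These points share libraries and depth, and the r values are a description. They were highest with Serping1 (0.865), Igfbp5 and Fstl1 for Mgp, with Mmp23 (0.816), Il1rl1 and Serpinf1 for Mfap4, and with Lum (0.892), Smoc2 and Col14a1 for Mfap5. For Fbn1 they were Col5a2 (0.860), Bgn and Nid1, and for Eln they were Crispld2 (0.824), Naalad2 and Thbd. Serping1, Serpinf1 and Lum are markers used to call stromal-like cells. Among the 5 genes r was highest between Mgp and Eln (0.797) and lowest between Mgp and Mfap5 (0.508).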

How the data were processed

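The authors deposited 1 table per sample with a value for each gene and cell, log2(CPM + 1), normalized in Partek Flow. Cell Ranger, Partek and mm39 are named in the submitters' processing notes. Per the study's methods, cells had been filtered on UMIs, genes and mitochondrial share. UMIs were recovered here by taking, in each cell, the commonest nonzero value as 1 UMI (99.934% of 39334018 values were whole within 0.05 UMI). The files hold 20269 cell columns in runs of ordered barcodes. Analysis was limited to the first run per file (11207 cells). The other 9062 columns are of unknown condition, and 1680 cells occur in more than 1 file, under different labels. In the control files of day 0, 5 and 14 the first runs hold 1152, 2428 and 3294 of 2304, 4855 and 6095 columns. In the hypothyroid files they hold 528, 2155 and 1650 of 1056, 4309 and 1650. The study reports more cells per sample than the first runs hold. For day 0 and 5 its counts are close to the whole files. Whether later columns belong to the label of their file was not tested. Between first runs 12 barcodes are shared, with different values. No further cell filter was applied and no doublets were removed.

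A cell took the class of which it had the most of 8 markers, at least 2 and more than of any other class. Myocyte-like cells had to hold 10% of their UMIs in the myocyte list. Sub-states were called likewise from 6 markers. Of stromal-like cells, 171 led by 1 marker. The scoring rule was set after the files were seen. UMIs were summed per pool, with exact Poisson intervals for levels, exact conditional binomial intervals for ratios and Clopper-Pearson intervals for shares. Pools under 20 cells were not compared. Ratios were tested on simulated data of the day 0 stromal contrast (10341 genes, 200 changed). There 100% of the changed genes were placed in the correct direction and 96.1% of intervals covered the simulated ratio. The simulated counts were independent Poisson draws per pool, so this coverage does not extend to UMIs gathered in few cells. UMIs within a cell are not independent, and the intervals leave out differences between cells and mice.

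The members and all lists were chosen with earlier results of these data known. The 5 genes are always named. Genes of the lists are named where past 2-fold with at least 100 UMIs in both pools together (at most 4 per list and day), and 3 genes per member by likeness. Exceptions are marked. Elane, Gfra3, Cxcr2 and Retnlg are not analysed here. A RefSeq promoter was matched for 1 of the 5 genes. Python 3.11.15, numpy 2.4.6, scipy 1.17.1 and pandas 2.3.3 were used.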

Additional observations from a re-analysis of the deposited data

Results flagged for a closer look

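The contrast between the diets went in different directions on different days for Mfap4 and Mfap5 in stromal-like cells. The Mfap4 ratio of hypothyroid to control was 0.0775 at day 0, 2.15 at day 5 and 0.816 at day 14. The Mfap5 ratio was 0.681, 1.35 and 0.853. When every column of the files was used, Mfap4 stood at 0.295, 0.759 and 1.15 and Mfap5 at 0.669, 1.005 and 0.974, so the higher level of day 5 was gone for Mfap4 and nearly so for Mfap5. With 1 library per group the difference between days was not tested.

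The columns of unknown condition, left out of all comparisons, also held the 5 genes. With copies of first-run cells removed, 3760 of 7382 such cells were stromal-like. Their level was 1219 CPM for Mgp, 165.5 CPM for Mfap4, 2176 CPM for Mfap5, 1221 CPM for Fbn1 and 172 CPM for Eln, against 0.109 CPM for a count of 3 UMIs.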

How the results depend on the processing

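With 1 library per group no replicate could be left out and no paired analysis was possible because no group has a second library. The median ratio of the 5 genes was 0.539 at day 0, 0.982 at day 5 and 0.519 at day 14. With all cell columns of each file it was 0.658, 0.691 and 0.702. Cells thinned to 1500 UMIs gave 0.383 at day 0 and 0.538 at day 14, the ratio divided by the median of all genes 1.24 at day 5 and 0.564 at day 14, mixed cells left out 1.28 at day 5, the mean over cells 0.565 at day 14, and the pool without tenocyte-like cells, added after the data were seen, 0.493 at day 14. At a 1.5-fold limit 4 genes were lower at day 0 in place of 2, and 2 at day 5 in place of 0.

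Of 105 alternatives to the ratios of single genes, 56 moved by less than the counting interval, 46 by more, and 3 reversed, all with all cell columns: Fbn1 at day 0 (1.04), Mfap4 at day 5 (0.759) and Mfap4 at day 14 (1.15). With all columns Mgp was at 0.552 at day 0 and 0.405 at day 5 and 0.608 at day 14, and Eln at 0.702 at day 14. Eln at day 0 was 0.383 in thinned cells. The columns beyond the first run include cells found in files of other conditions, and the cause of the other moves was not tested. Depth limits Mfap4 and Eln in the uninjured hypothyroid library, with 6 and 40 stromal UMIs.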

Other observations

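Mgp, Mfap5 and Fbn1 were also found in glial-like cells. In the uninjured control library 43 such cells held 243.5 CPM of Mgp (42 UMIs) and 272.5 CPM of Mfap5. The 16 hypothyroid cells held 15.8 CPM of Mgp, from 1 UMI, and are too few to compare. The part of free RNA in the levels of glial-like cells was not tested. In monocyte/macrophage-like cells Mfap5 was at 9.29 CPM in the control and 81.9 CPM in the hypothyroid library of day 5, while lymphoid-like cells of the same libraries held 4.80 and 49.2 CPM.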
